A study of Mus musculus with 15 samples.

Results

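The smooth muscle contractile genes followed here are Myh11, Acta2, Actg2, Des, Cnn1, Tagln, Smtn, Lmod1, Synm and Sh3bgr, 10 of the 17752 genes listed in any mouse. They were taken by gene symbol from the expression table of each mouse, all 10 were listed in all 15 mice, and all 10 passed the filter on low counts, which kept 14386 genes. The tables come from the ileum of 15 female mice, labelled as C57BL/6 and 8 weeks old and named C57BL/6JOlaHsd in the study's methods, that were gavaged every 2 days over 10 days. A group of 5 mice received water, 5 received a low molecular weight fraction of grape proanthocyanidins (PAC) and 5 received a high molecular weight fraction, each fraction at 200 mg/kg. The groups are called water, low PAC and high PAC after the labels, while the methods of the study describe the PAC groups as fractions of low and medium mean degree of polymerization (mDP), the average number of linked flavanol units. All mice, controls included, ate the same purified diet, and no source describes a separation of the gut layers, so muscle wall, nerves and mucosa are taken to have been measured together.

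Smooth muscle of the gut wall contracts when phosphorylated myosin pulls on actin filaments, which are anchored to dense bodies and to a network of intermediate filaments. The circular and longitudinal muscle layers enclose the myenteric plexus and the interstitial cells of Cajal, and a thin mesothelium covers them on the outside. Many contractile genes are switched on by serum response factor (SRF) and its partner myocardin, which act at CArG boxes, short runs of A and T bases between CC and GG. Acta2 is also made by vascular smooth muscle, pericytes and myofibroblasts, and Myh11 by vascular smooth muscle, so these genes mark smooth muscle of more than the outer wall.

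The RefSeq promoter table for GRCm38.p6 held 6 of the 10 genes, namely Acta2, Cnn1, Smtn, Lmod1, Des and Synm, and their CArG boxes are shown because the 10 genes moved together between mice. None of the 6 had a CArG box within 250 bases upstream of its RefSeq start, against 1.47% of the 32851 promoters in that table. At so low a share most sets of 6 would hold none, so this count does not set the 6 genes apart. Boxes outside the 250 bases were not looked for. For Des the bases after that start were not found in a GENCODE transcript of the gene, so its window is less certain. The motif reads the same on both strands. When 1 core base was allowed to differ from A or T, Acta2 had 2 matches and Synm 1, and 8.59% of all promoters had at least 1 such match and 0.67% at least 2. The first Acta2 match began 84 bases and the second 34 bases upstream of the RefSeq start, and the Synm match began 239 bases upstream. The stretches are 30 bases long, read along the gene's strand, with the match in capitals. They lie on the minus strand at chr19:34255438-34255467, chr19:34255388-34255417 and chr7:67759962-67759991, and the Acta2 stretches fall inside the longer gene model of GENCODE. These matches of letters are a description and are not known from these data to be bound.
Acta2, first match: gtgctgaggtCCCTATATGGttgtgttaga
Acta2, second match: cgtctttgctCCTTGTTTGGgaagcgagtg
Synm: caacggggagCCTCATAAGGtgtcccagat

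The deposited expected counts summed to between 15963086 and 17903886 per mouse. The 10 genes together took between 0.0801% and 0.334% of them. Except for Sh3bgr, which had between 26 and 221 expected counts, the genes had at least 362 in each mouse, so that differences between mice rather than counting error set their precision. Levels are given as FPKM, fragments scaled for the length of the transcript and for the mapped fragments of the library, which allows genes of different length to be compared.

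Water mice 1 and 3 stood apart from the other 13 mice. The summed FPKM of the 10 genes was 329 in water mouse 1 and 285 in water mouse 3, against 899, 939 and 955 in water mice 2, 4 and 5. It was 937, 916, 1046, 598 and 880 in low PAC mice 1 to 5, and 1025, 1151, 720, 895 and 1091 in high PAC mice 1 to 5. The lowest mouse of each PAC group, low PAC 4 and high PAC 3, therefore lay above both low water mice and below all other mice. A sum of this kind does not separate fewer muscle cells in the piece of tissue from less RNA per muscle cell, and these cannot be told apart in bulk RNA. The fold changes of the 10 genes against water are therefore given below with and without water mice 1 and 3.

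The actins of the thin filament were the most abundant of the genes. Acta2, smooth muscle alpha actin (chr19:34241090-34255590, minus strand, GRCm38), had FPKM of 89.9, 213, 75.5, 232 and 241 in water mice 1 to 5, of 241, 218, 258, 145 and 228 in low PAC mice 1 to 5, and of 223, 276, 191, 241 and 271 in high PAC mice 1 to 5. Actg2, the gamma actin of enteric smooth muscle (chr6:83512905-83536265, minus strand), had 56.6, 179, 48.8, 185 and 187 in water, 181, 163, 202, 123 and 167 in low PAC, and 206, 237, 147, 152 and 208 in high PAC. For both actins the PAC groups overlapped water mice 2, 4 and 5, and every PAC mouse lay above water mice 1 and 3. No stretch of 100 bases of the Acta2 or Actg2 transcript was shared exactly with the other or with Acta1, Actc1, Actb or Actg1.

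Myh11, the heavy chain of smooth muscle myosin and the motor of the thick filament (chr16:14194535-14291372, minus strand), held 38.2% of the expected counts of the 10 genes. Its FPKM was 46.3, 156, 42.0, 168 and 165 in water, 167, 171, 178, 89.2 and 157 in low PAC, and 183, 199, 90.5, 155 and 188 in high PAC. The lowest mouse of each PAC group had about the same Myh11 level, and each lay far below the other 4 mice of its group.

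Of the genes whose proteins bind or build actin filaments, Tagln, Cnn1, Smtn and Lmod1 all had their lowest levels in water mice 1 and 3. Tagln, transgelin or SM22 alpha (chr9:45929619-45936058, minus strand), had FPKM of 60.3, 139, 53.2, 138 and 149 in water, 137, 144, 165, 103 and 130 in low PAC, and 173, 181, 132, 134 and 174 in high PAC. Cnn1, calponin 1, which restrains the actin-activated ATPase of myosin (chr9:22099216-22109630, plus strand), had 18.5, 55.3, 14.6, 55.3 and 55.0 in water, 54.1, 58.0, 62.8, 36.2 and 52.2 in low PAC, and 66.1, 70.0, 45.8, 55.0 and 65.7 in high PAC. In water mice 2, 4 and 5 the Cnn1 levels lay within 0.3 FPKM of each other, while water mice 1 and 3 had less than any PAC mouse. Smtn, smoothelin, an actin-associated protein of contractile smooth muscle (chr11:3517523-3540612, minus strand), had 16.7, 31.6, 12.4, 36.5 and 34.2 in water, 31.0, 34.3, 36.4, 24.7 and 28.7 in low PAC, and 31.8, 37.6, 20.8, 34.4 and 40.7 in high PAC. Lmod1, leiomodin 1, which nucleates actin filaments (chr1:135324807-135368065, plus strand), had 5.35, 13.8, 5.55, 16.1 and 13.1 in water, 15.2, 13.9, 18.1, 9.56 and 12.5 in low PAC, and 15.6, 16.8, 9.07, 15.2 and 17.4 in high PAC. Next above those came low PAC 4 for Tagln and Cnn1, and high PAC 3 for Smtn and Lmod1. The Tagln gene overlaps Pcsk7 on the opposite strand, and the strand setting of the counting is not given in the sources used here.

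Des and Synm encode the intermediate filament proteins desmin and synemin, which pair in the network that links dense bodies. Des (chr1:75360329-75368579, plus strand) had FPKM of 29.9, 89, 27.0, 85.3 and 89.1 in water, 83.3, 88.6, 102, 55.6 and 78.3 in low PAC, and 99.2, 105, 66.4, 83.9 and 99.0 in high PAC. Synm (chr7:67730160-67759742, minus strand) had 4.69, 16.9, 3.74, 15.9 and 16.4 in water, 18, 16.9, 16.2, 7.89 and 17.8 in low PAC, and 17.1, 18.7, 10.8, 17.0 and 17.2 in high PAC. Outside the 4 low mice Synm stayed between 15.9 and 18.7 FPKM, and 4 of 5 high PAC mice but 2 of 5 low PAC mice lay above the highest water mouse. Synm overlaps Ttc23 on the opposite strand.

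Sh3bgr, a small thioredoxin-fold protein with a glutamate-rich tail known from heart and skeletal muscle (chr16:96200450-96228935, plus strand), was the least abundant. Its FPKM was 1.20, 5.46, 2.35, 6.27 and 6.18 in water, 8.23, 8.13, 8.10, 3.54 and 9.15 in low PAC, and 9.70, 10.1, 5.53, 7.60 and 10.1 in high PAC. Unlike the other 9 genes, Sh3bgr was higher in 4 of 5 mice of each PAC group than in any water mouse, water mice 2, 4 and 5 included, with low PAC 4 and high PAC 3 the exceptions.

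**Figure D1:**
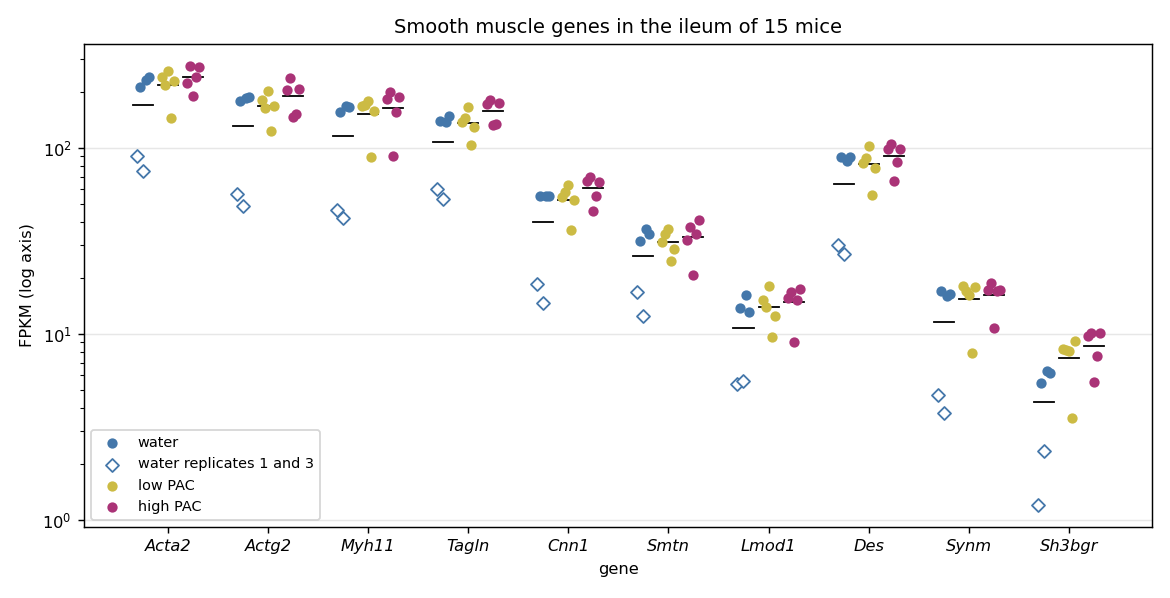
FPKM of the 10 smooth muscle genes on a log axis, 1 point per mouse (5 water, 5 low PAC, 5 high PAC), with bars at the group means and open diamonds for water mice 1 and 3. The open diamonds lie below all other points of every gene, and Sh3bgr is the gene whose remaining water mice lie below 4 of 5 mice of each PAC group.

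Ordered by mean FPKM over the 15 mice (SD), the genes ran from Acta2 at 210 (60.5) through Actg2 at 163 (52.7), Myh11 at 144 (50.8), Tagln at 134 (37.4), Des at 78.8 (24.2), Cnn1 at 51.0 (16.3), Smtn at 30.1 (8.11), Synm at 14.3 (5.00) and Lmod1 at 13.2 (4.04) to Sh3bgr at 6.77 (2.77). Most of this order held in each of the 15 mice. The exceptions were Actg2 and Myh11, with Actg2 higher in 13 mice, Myh11 and Tagln, with Myh11 higher in 11, and Synm and Lmod1, with Synm higher in 9. The ratio of the highest to the lowest mouse was smallest for Smtn, at 3.28, and largest for Sh3bgr, at 8.39, with Synm at 5.01, Actg2 at 4.85, Cnn1 at 4.79 and Myh11 at 4.75.

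Low PAC was compared with water to ask whether the smaller PAC altered these genes. All 10 had a log2 fold change above 0, between 0.19 for Smtn and 0.76 for Sh3bgr with a median of 0.32 (SE of single genes 0.24 to 0.39), and 45.5% of all 14386 genes tested also lay above 0. None passed edgeR's quasi-likelihood test, with a Benjamini-Hochberg adjusted p of 0.976 for each gene, and 0% of all genes did. At an unadjusted p under 0.05 the count was 0 of 10, where 1.4% of all genes were higher and 2.21% lower at that limit, and DESeq2 called none of the 10 and 0.0139% of all genes. Mean FPKM in low PAC against water (SD, n = 5 each) was 152 (36.2) against 115 (65.2) for Myh11, 218 (43.3) against 170 (80.7) for Acta2 and 7.43 (2.22) against 4.29 (2.35) for Sh3bgr. The water SDs were the larger for each of the 10 genes, and for none of them did all low PAC mice lie above all water mice, as they did for 0.494% of all genes. In two-sided exact permutation tests on log2(FPKM + 0.1), whose smallest possible p is 0.00794, p ran from 0.127 for Sh3bgr to 0.389 for Smtn. Without low PAC 4 the number of genes with such a p under 0.05 was 1 in place of 0.

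Most signs turned when water mice 1 and 3 were both left out, and none turned when 1 mouse was left out. Both mice had the lowest levels of every gene, so leaving them out while keeping low PAC 4 lowers each fold change by construction. Without water mice 1 and 3, 9 of the 10 log2 fold changes of low PAC against water turned below 0. They lay between -0.16 for Actg2 and Smtn and -0.08 for Tagln and Lmod1. Sh3bgr stayed above 0 at 0.29 with a 95% interval from -0.28 to 0.87. The median went from 0.32 to -0.11. On the log2(FPKM + 0.1) scale, limma gave a median of 0.54 with all mice. These mice were left out for low values of the same genes, so the values are a description and no test is read from them.

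High PAC against water asked the same of the larger PAC. All 10 genes again had a log2 fold change above 0, between 0.25 for Smtn and 0.92 for Sh3bgr with a median of 0.42, where 50.5% of all genes lay above 0. Both PAC comparisons use the same 5 water mice. None of the 10 was called, with adjusted p from 0.272 for Sh3bgr to 0.635 for Smtn in edgeR, and 0.0139% of all genes were called. By DESeq2 none was called either, against 0.945% of all genes, although the adjusted p of Sh3bgr was not given there because of that tool's own filter. At an unadjusted p under 0.05 the count was 1 of 10, which was Sh3bgr, and 4.37% of all genes were higher and 10.4% lower at that limit. Sh3bgr averaged 8.59 FPKM (SD 1.99, n = 5) in high PAC and 4.29 (SD 2.35, n = 5) in water, a log2 fold change of 0.92 with a 95% interval from 0.16 to 1.68. Its exact permutation p was 0.0238, unadjusted over the 10 genes, and the other 9 had exact p from 0.0794 for Tagln to 0.222 for Smtn. The number of genes with an exact p under 0.05 fell from 1 to 0 without high PAC 1, 2, 4 or 5, and was 2 without water mouse 5. Tagln averaged 159 FPKM (SD 23.7, n = 5) in high PAC and 108 (SD 46.9, n = 5) in water, with a log2 fold change of 0.48 whose interval ran from -0.04 to 0.99. For none of the 10 did all high PAC mice lie above all water mice, as they did for 3.99% of all genes. The intervals of the other 9 genes held 0, and those of Myh11, Actg2, Des, Cnn1, Synm and Sh3bgr also held a 2-fold higher level.

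Without water mice 1 and 3, 6 of the 10 log2 fold changes of high PAC against water turned below 0 (Myh11, Actg2, Des, Smtn, Lmod1 and Synm), the lowest at -0.11 for Smtn and for Synm. Acta2 lay at 0.01, Cnn1 at 0.07 and Tagln at 0.09, and Sh3bgr at 0.46 with an interval from -0.12 to 1.03. The median went from 0.42 to -0.02, and by limma on log2(FPKM + 0.1) with all mice it was 0.69. When low PAC 4 and high PAC 3 were left out as well, the lowest mice of every group were gone. The fold changes then lay between 0.03 and 0.59 for high PAC against water, with all 10 above 0. For low PAC against water they lay between -0.09 and 0.47, with 6 above 0 and 4 below. Sh3bgr was the highest in both, with 95% intervals from 0.33 to 0.85 (high PAC) and from 0.21 to 0.72 (low PAC). These mice too were left out for low values of the same genes, so no test is read from the intervals.

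High and low PAC differ in molecular size and were given at the same dose and over the same time. Their 10 log2 fold changes, high minus low, lay between 0.01 for Synm and 0.18 for Tagln with a median of 0.11, all above 0, as were 51.4% of all genes. None of the 10 and 0% of all genes were called, with adjusted p from 0.924 to 0.997 in edgeR. At an unadjusted p under 0.05 the count was 0 of 10, where 1.84% of all genes were higher and 2.05% lower, and DESeq2 called none of the 10 and 0% of all genes. For none did all high PAC mice lie above all low PAC mice, against 0.646% of all genes. The 95% intervals reached down to between -0.80 for Synm and -0.33 for Tagln and up to between 0.58 for Smtn and 0.91 for Sh3bgr, so differences of that size between the fractions in either direction were within the error and a like response to both was not shown. The sign was not stable for all genes. Without low PAC 4, for example, the median was -0.01.

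**Figure D2:**
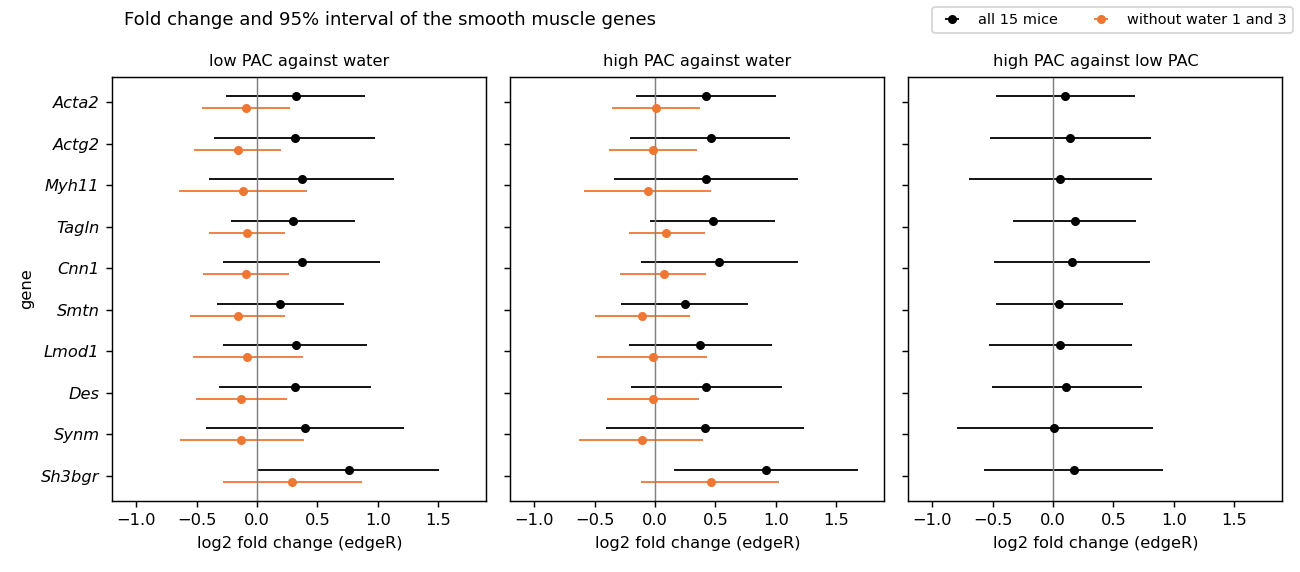
log2 fold changes of the 10 genes from edgeR with 95% intervals, for low PAC against water, high PAC against water and high against low PAC. Black points use all 15 mice and orange points leave out water mice 1 and 3, which moves 9 genes (low PAC) and 6 genes (high PAC) from above 0 to below 0.

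The 10 genes rose and fell together from mouse to mouse. Over the 45 pairs of genes and 15 mice, Pearson's r of log2 FPKM ran from 0.835 for Smtn with Sh3bgr to 0.995 for Des with Cnn1, with a median of 0.958. All pairs share the same libraries, and the low water mice carry much of the range, since the median was 0.85 without water mice 1 and 3 and 0.628 without the 4 low mice. In that last set Smtn and Synm had an r of -0.209, and Cnn1 and Tagln the highest, at 0.972. The level of each gene against the mean of the other 9, a log2 difference that cancels a change shared by all, varied far less than the gene itself. For Des the SD over mice was 0.61 for the gene and 0.07 for the difference, and for Cnn1 it was 0.66 and 0.10.

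Sh3bgr and Smtn kept the ratio to the other genes least, with SDs of that difference of 0.36 and 0.24. Sh3bgr had 26 expected counts in water mouse 1 and at most 221 in any mouse, so counting error is part of its spread. The relative level of Sh3bgr was -4.25, -3.61, -3.12, -3.48 and -3.48 in water mice 1 to 5, -3.07, -3.07, -3.25, -3.60 and -2.81 in low PAC, and -2.95, -3.05, -3.17, -3.15 and -2.99 in high PAC. The mean in high PAC was 0.53 higher than in water (exact permutation p = 0.0238), with 3 of 5 high PAC mice above every water mouse, while water mouse 3 lay at the level of the high PAC mice. Low PAC against water gave 0.43 (exact permutation p = 0.0952). Smtn had relative levels of -0.15, -0.82, -0.51, -0.67 and -0.76 in water, -0.95, -0.78, -0.86, -0.53 and -0.99 in low PAC, and -1.06, -0.95, -1.07, -0.74 and -0.77 in high PAC. Its highest relative levels were in water mice 1 and 3 and low PAC 4, all low in the other genes, while high PAC 3 had the lowest. High PAC had a mean 0.33 lower than water (exact permutation p = 0.0397). Against water mice 2, 4 and 5 alone, all 5 high PAC and 4 of 5 low PAC mice had a higher relative level of Sh3bgr, and 3 of 5 mice of each PAC group had a lower one of Smtn. The p-values of 0.0238 and 0.0397 are the 2 lowest of 30 such p-values, none of them adjusted, and the other 8 genes had p of 0.159 or more between high PAC and water.

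**Figure D3:**
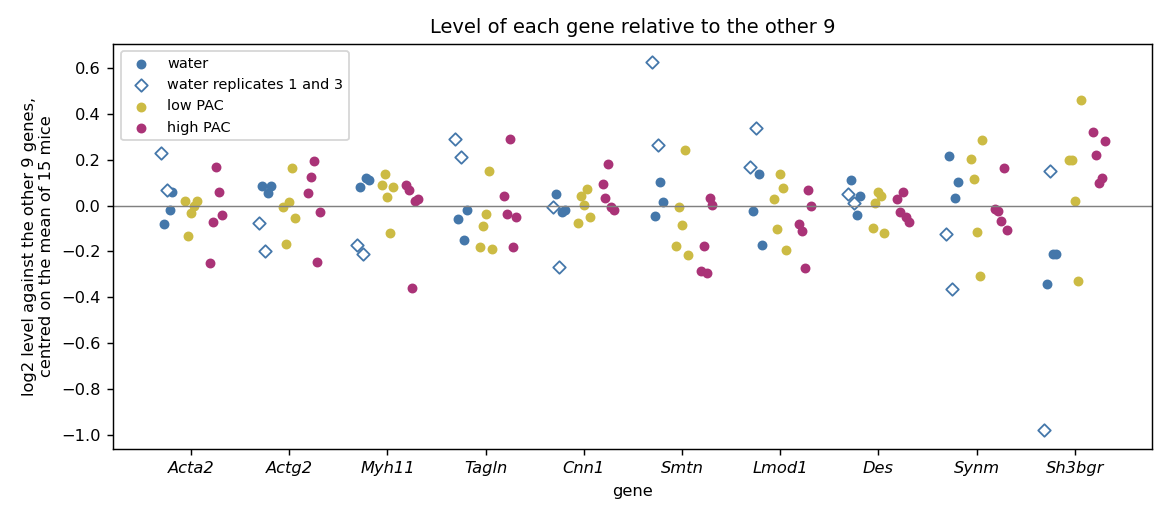
Level of each gene against the mean of the other 9 (log2), centred on the mean of 15 mice, 1 point per mouse with open diamonds for water mice 1 and 3. Most genes stay within 0.4 of their mean, whereas Sh3bgr in water mouse 1 lies at -0.98 and Smtn in the same mouse at 0.62.

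The deposited gene length, an estimated average over the transcripts of a gene, also differed between mice for Smtn and Synm. Whether their mix of transcripts changed was not tested. For Synm, with 3 transcripts, the length was 6410 bases in water mouse 1, 6314 in water mouse 3 and 6575 in high PAC 3. It was 7063 to 7308 in the 11 mice outside the 4 low ones, while low PAC 4 had 7270. For Smtn, with 5 transcripts, it was 3264, 3283, 3253 and 3252 bases in water 1, water 3, low PAC 4 and high PAC 3, against 3227 to 3237 in the other 11. The low mice thus had the longer average for Smtn and, in 3 of 4, the shorter for Synm. The FPKM of these genes contains that length, while the expected counts do not.

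Other genes of the contractile machinery moved with them in part. Of 27 further structural genes (light chains, tropomyosins and other filament proteins), 0 were called by edgeR in any comparison, and 23 lay above 0 for low PAC and 22 for high PAC against water with medians of 0.23 and 0.28, where the medians of all genes were -0.01 and 0. Without water mice 1 and 3, 6 and 10 of them lay above 0 and the medians were -0.09 and -0.06. Myl9, the light chain whose phosphorylation starts contraction, had 89.7 and 87.1 FPKM in water mice 1 and 3 and 236 to 262 in water mice 2, 4 and 5. Tpm1, a tropomyosin made in several cell types, had 290 and 265 against 432 to 437. Myl6, a light chain used by muscle and non-muscle myosins, had 677 and 637 against 745 to 792, and a log2 fold change of 0.28 in high PAC against water (adjusted p = 0.232, edgeR). Myl9 thus separated the low water mice more widely than the light chain shared with other cells. Of the 27, 2 were higher in low PAC than in water at an unadjusted p under 0.05, and 3 were higher and 2 lower in high PAC, where 1.4% (low PAC, higher), 4.37% (high PAC, higher) and 10.4% (high PAC, lower) of all genes were. DESeq2 called 1, with 3 of the 27 left without an adjusted p in high PAC against water, against 0.945% of all genes. It was Sorbs2, an adaptor protein of the actin cytoskeleton, higher in high PAC than in water (log2 fold change 0.34, adjusted p = 0.0418 by DESeq2 and 0.185 by edgeR). A score for each list, the mean over its genes of log2(FPKM + 0.1) centred on the 15 mice, was set beside the same score of the 10 genes. Over 15 mice its r was 0.99 for the machinery, and 17 of its 27 genes had an r over 0.9.

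Genes that control contraction were less uniform. Of 21 genes of this list (kinases, phosphatase subunits, channels, receptors and others), 0 were called. Against water 17 lay above 0 for low PAC and 13 for high PAC, where 45.5% and 50.5% of all genes did. Of the 21, 11 had an r over 0.9 with the score of the 10 genes, against 354 of all 14386 genes tested. The most abundant genes of the list differed less between mice than the 10 genes did. Rhoa, a small GTPase that promotes contraction, had 209 and 220 FPKM in water mice 1 and 3 and 198 to 211 in water mice 2, 4 and 5. Ppp1r12a, the targeting subunit of myosin phosphatase, had 41.5 and 37.4 against 47.2 to 54.1, and Pde5a, a cGMP phosphodiesterase, 37.4 and 37.8 against 38.0 to 43.9. At an unadjusted p under 0.05, 0 passed for low PAC, and 1 was higher and 2 were lower for high PAC against water (4.37% and 10.4% of all genes). DESeq2 called none, but in high PAC against water its filter left 10 of the 21 without an adjusted p. Without water mice 1 and 3, 3 and 5 of the 21 lay above 0. Of 18 genes of adhesion and caveolae, 17 were tested, 0 were called by edgeR or DESeq2 (9 without an adjusted p from DESeq2 in high PAC against water), 1 was lower in high PAC than in water at an unadjusted p under 0.05 (10.4% of all genes), and 4 had an r over 0.9. Among them Itgb1, an integrin chain, had 89.7 and 90.5 FPKM in water mice 1 and 3 and 99.8 to 117 in the other water mice, Cav1, the caveolin of caveolae, 28.4 and 29.1 against 36.0 to 52.1, and Cavin1, its partner, 12.9 and 15.8 against 20.2 to 27.8.

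The abundant regulators of the programme differed little between the low and the other water mice. Of 13 genes of the myocardin and SRF list, 12 were tested, 0 were called by edgeR or DESeq2 (2 without an adjusted p from DESeq2 in high PAC against water), and 0 had an r over 0.9. At an unadjusted p under 0.05, 1 was higher in low PAC than in water, 3 were lower in high PAC than in water and 2 were lower in high than in low PAC, where 1.4%, 10.4% and 2.05% of all genes were. Srf itself had 18 and 15.1 FPKM in water mice 1 and 3 and 16.5 to 18.2 in the others, Gata6, a transcription factor of muscle and epithelium, 31.6 and 28.7 against 27.2 to 30.8, and Fhl2, a cofactor of SRF, 19.0 and 15.5 against 17.5 to 18.9. Myocd, the gene of myocardin, named here after its values were seen, had 0.72 and 0.55 FPKM against 1.31 to 1.56 and the highest r of the list, 0.88. The r of the list's score was 0.63 over 15 mice and 0.24 without water mice 1 and 3.

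Markers of other cells of the outer wall followed the smooth muscle genes in part. The 13 markers of enteric neurons summed to 26.9 and 26.1 FPKM in water mice 1 and 3 and to 60.3 to 62.0 in the other water mice. They summed to 41.5 to 67.0 in low PAC and to 63.9 to 71.9 in high PAC. The r of their score was 0.97 over 15 mice and 0.83 without water mice 1 and 3. Without those mice, 2 of the 13 lay above 0 for low PAC and 10 for high PAC against water (medians -0.11 and 0.11). Uchl1, a neuronal hydrolase of ubiquitin, had 2.23 and 2.18 FPKM in water mice 1 and 3 and 6.82 to 8.04 in the others, while the neuropeptide genes Vip, at 8.50 and 8.28 against 13.5 to 16.3, and Tac1, at 4.78 and 5.91 against 8.05 to 9.71, were lowered less. High PAC 3, low in muscle, had a neuronal sum of 69.7, within the range of the other high PAC mice, and low PAC 4 the lowest of its group, 41.5. On the neuronal score, which weighs its genes equally, high PAC 3 was the lowest of its group, at 0.151 against 0.258 to 0.415. Whether neuronal and muscle genes parted in that mouse thus depends on the measure. The 6 mesothelial markers other than Krt19, a keratin that the epithelium makes in far larger amounts, summed to 7.94 and 7.97 in water mice 1 and 3, to 16.1 to 24.5 in the other water mice, to 12.1 to 26.2 in low PAC and to 13.3 to 33.2 in high PAC. Upk3b, a uroplakin of mesothelium, was missing from the tables of water mice 1 and 3 and was therefore set to 0, and had 3.48 to 8.03 in the other water mice. Upk1b, another uroplakin, did not follow, with 6.96 and 7.28 against 6.43 to 9.56, and Krt19 had 1380 and 1280 against 1150 to 1400.

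The 7 genes of the interstitial cell of Cajal list summed to between 42.8 and 58.6 FPKM in water, 45.0 and 58.3 in low PAC and 40.9 and 61.9 in high PAC, with all 4 low mice at 45.2 or less and every other mouse of their groups higher. Kit, the receptor that defines these pacemaker cells, had 9.36 and 7.25 FPKM in water mice 1 and 3 and 10.3 to 13.4 in the other water mice, Gja1, a gap junction protein, 8.43 and 8.82 against 12.4 to 14.1, and Edn3, an endothelin also made by other cells, 18.4 and 22.7 against 17.6 to 22.8. Of 7 glial markers 6 were tested, and their sums were 3.42 to 5.82 in water, 5.97 to 7.28 in low PAC and 5.78 to 8.42 in high PAC. The r of their score was 0.88 over 15 mice and 0.52 without water mice 1 and 3. Unlike the 10 genes, all 6 glial markers still lay above 0 against water without those mice (medians 0.28 for low PAC and 0.29 for high PAC). Cdh19, a cadherin, had 0.62 and 0.91 FPKM in water mice 1 and 3 against 1.01 to 1.70 in the other water mice, and S100b, a calcium-binding protein, 0.36 and 0.29 against 0.73 to 1.08.

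Vascular and connective tissue markers differed among themselves in how they followed the 10 genes. Pericyte and vascular smooth muscle markers, 9 of 10 of them tested, summed to 62.6 to 148 in water, 84.6 to 169 in low PAC and 108 to 170 in high PAC. That sum is mostly Rgs5, a regulator of G protein signalling, which had 34.0 and 36.1 FPKM in water mice 1 and 3 and 96.4 to 108 in the others. Mcam, an adhesion molecule, had 9.11 and 7.62 against 10.9 to 15.2, whereas Pdgfrb, the receptor that defines pericytes, had 10.4 and 8.75 against 8.19 to 10.8 and an r of -0.01 with the score of the 10 genes. The 10 fibroblast genes summed to 222 to 370 in water, 291 to 427 in low PAC and 294 to 398 in high PAC. Dcn, a proteoglycan, had 98.8 and 85.3 FPKM against 136 to 148, Col3a1, a fibrillar collagen, 37.9 and 29 against 44.0 to 51.2, and Col6a1, a microfibrillar collagen, 42.0 and 34.6 against 40.2 to 50.2. The 10 endothelial genes, led by Pecam1, Lyve1 and Eng, summed to 74.8 and 72.2 in water mice 1 and 3 and to 62.7 to 72.5 in the others, and to 61.7 to 80.4 in low PAC and 66.3 to 87.8 in high PAC, with an r of -0.10.

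The summed level of the 12 epithelial markers was higher in the low water mice, though not every gene followed, with sums of 8490 and 8100 FPKM in water mice 1 and 3 against 7090 to 7810 in the other water mice, 7110 to 7990 in low PAC and 7060 to 7640 in high PAC. Krt8, a keratin, had 1800 and 1710 FPKM in water mice 1 and 3 and 1460 to 1740 in the others, Lgals4, a galectin of the gut lining, 1590 and 1540 against 1360 to 1470, and Epcam, an epithelial adhesion molecule, 1180 and 1110 against 932 to 1020. Striated muscle genes, of which 7 of the 14 in the tables were tested, summed to 11.9 to 23.9 in water, 15.4 to 25.2 in low PAC and 17.4 to 24.5 in high PAC. Ckm, the muscle creatine kinase, had 2.09 and 1.63 against 5.44 to 6.42 and Tnnt2, a troponin, 0.62 and 0.95 against 4.03 to 4.94, but Acta1, the skeletal actin, 6.88 and 3.18 against 2.12 to 4.92. The 7 adipocyte genes (Fabp4, Cfd and Adipoq the most abundant) ranged from 134 to 606 in water, 181 to 750 in low PAC and 104 to 979 in high PAC, with an r of 0.29. The 8 B cell genes (led by Cd79a, Cd79b and Ms4a1) ranged from 7.24 to 153, 7.50 to 76.5 and 5.69 to 229, with an r of -0.36. Of the 96 genes tested in these 11 lists of cell types, edgeR called 0 in any comparison. There were 2 that were higher in low PAC than in water at an unadjusted p under 0.05, and 9 were higher and 4 lower in high PAC, where 1.4%, 4.37% and 10.4% of all genes were. DESeq2, which gave no adjusted p for 51 of the 96 in high PAC against water, called 1, the epithelial keratin gene Krt20, lower in high PAC than in water, against 0.945% of all genes called (log2 fold change of Krt20 -0.40, adjusted p = 0.032 by DESeq2 and 0.193 by edgeR). The part of these tissue differences in the fold changes of the 10 genes was not tested.

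**Figure D4:**
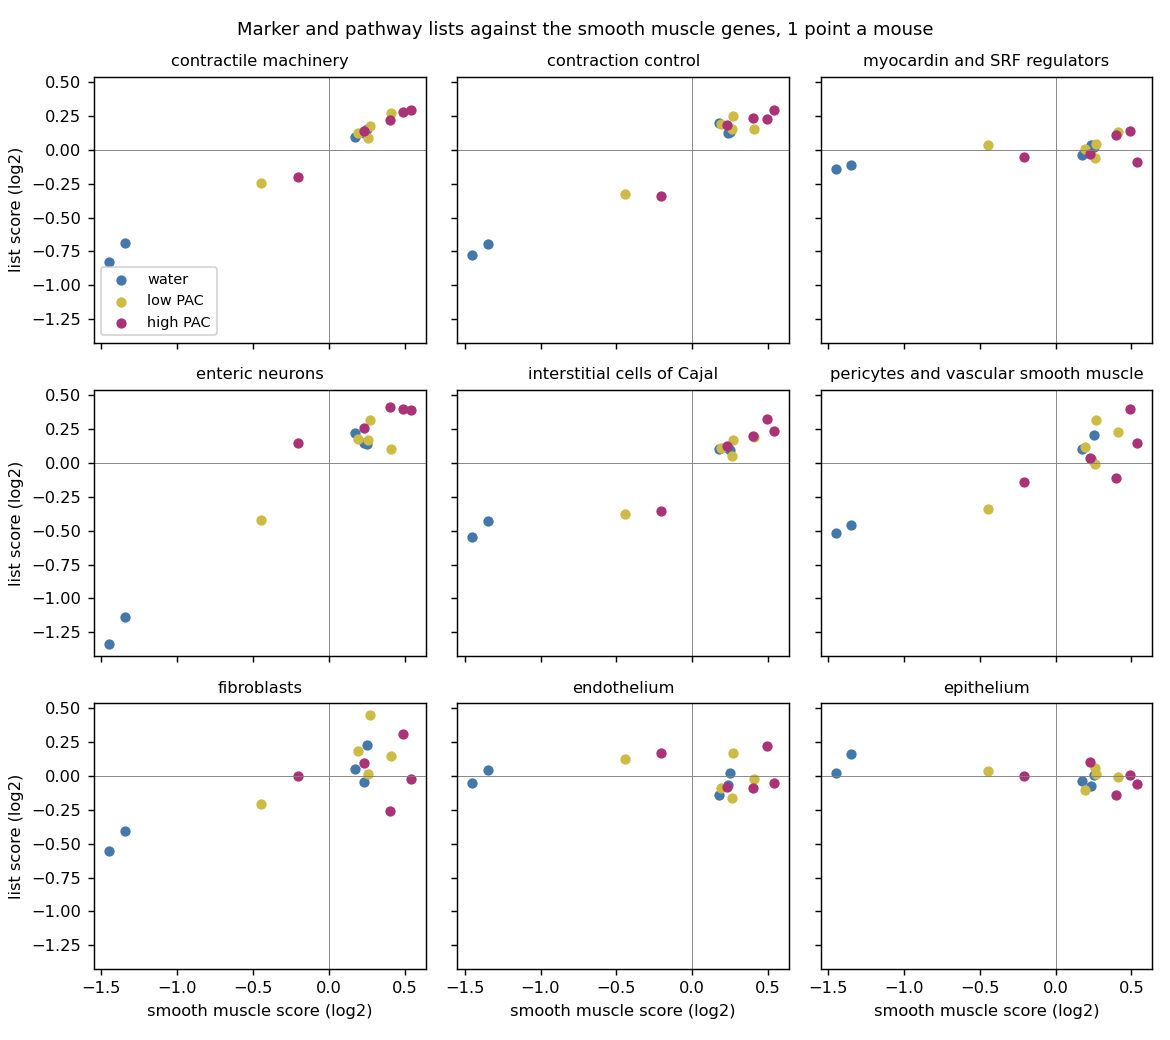
Score of 9 gene lists against the score of the 10 smooth muscle genes, each the mean of centred log2(FPKM + 0.1), 1 point per mouse coloured by group. Contractile machinery (r 0.99), enteric neurons (0.97) and contraction control (0.97) rise with that score, with water mice 1 and 3 at the lower left, while endothelium (-0.10) and epithelium (-0.52) do not.

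Among genes outside every list, the 6 most like the score of the 10 over the 15 mice were Marveld1 (r 0.991), a membrane protein with a MARVEL domain, Stum (0.986), Hand2 (0.986), a transcription factor of enteric neurons and mesenchyme, Kif5a (0.985), a neuronal kinesin, Pcp4l1 (0.984) and Slc5a7 (0.982), the choline transporter of cholinergic neurons. Slc5a7 had 0.11 and 0.12 FPKM in water mice 1 and 3 and 0.75 to 0.82 in the other water mice, and Hand2 2.52 and 2.31 against 6.47 to 7.26. Without water mice 1 and 3 their r was 0.888 and 0.928, and that of Pcp4l1 was 0.971. In all, 354 of the 14386 genes tested, the 10 included, had an r over 0.9, and 0 had one under -0.9. All these correlations come from the same 15 libraries and rest in part on the low mice.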

How the data were processed

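RNA from the ileum of 15 mice (5 per group, as labelled) was sequenced by the authors as read pairs of 100 bases on a BGISEQ-500 and mapped to mm10, with Bowtie2 in the study's methods and HISAT in the submitters' processing notes. The counting tool is not given in the sources used here. For each mouse the authors deposited an expected count (an estimated, unnormalized count, 88.6% to 89.5% of values whole), an FPKM value and a gene length; a gene missing from a table was given 0, and no table lists an FPKM under 0.01. The study's methods used NOIseq, which was not used here.

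Expected counts were rounded and fitted with edgeR 4.0.16 (TMM, quasi-likelihood, all 15 mice in 1 model of 3 groups, 14386 genes after edgeR's filter) in R 4.3.3. A gene was called at a Benjamini-Hochberg adjusted p under 0.05, and SEs were derived from the fold change and F. Single genes were also compared by two-sided exact permutation tests over mice (252 splits) on log2(FPKM + 0.1). Alternatives were DESeq2 1.42.0, limma 3.58.1 on log2 FPKM, other normalization, no filter, 2 groups only, a replicate block and mice left out. On simulated counts for high PAC against water (14317 genes), edgeR called 99 of 100 genes changed 4-fold, 80 of 100 changed 2-fold and 2 unchanged genes. The changed genes were picked at random, and the counts of different genes were drawn independently. These rates are therefore not rates for the 10 genes, whose SEs in high PAC against water were 0.24 to 0.39. Totals of 15963086 to 17903886 counts leave little counting error outside Sh3bgr.

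The 10 genes and all lists were chosen with earlier results of these data known. Named by rule were the 10 genes, in each other list the 3 genes of highest mean FPKM and any called gene, and the 6 genes outside the lists with the highest r with the mean centred log2 level of the 10. The values of 1 gene that the rule names are not reported here. Coordinates are from GENCODE M21 and promoters from RefSeq, both GRCm38.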

Additional observations from a re-analysis of the deposited data

Results flagged for a closer look

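In 33 groups of 5 mice that were tested for a mouse far from the other 4, 5 had one, where chance alone gives about 1 in 20 independent groups. The genes are strongly correlated over the same mice, so the 33 groups are not independent and that rate is no yardstick for the count. All 5 were in low PAC 4 or high PAC 3. In low PAC 4, Myh11 had 89.2 FPKM (157 to 178 in the other 4 mice), Synm 7.89 (16.2 to 18) and Sh3bgr 3.54 (8.10 to 9.15). In high PAC 3, Synm had 10.8 FPKM (17.0 to 18.7) and Lmod1 9.07 (15.2 to 17.4). Water mice 1 and 3 were not picked out this way because they lie close to each other.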

How the results depend on the processing

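No smooth muscle gene was called under any alternative run, with the adjusted p of Sh3bgr in high PAC against water not given by DESeq2. The number of all genes called in high PAC against water was 2, and became 136 with DESeq2, 4 with only the 2 groups compared, 9 with limma at either pseudocount (0.1 or 1), 0 without water mice 1 and 3, 0 without the 4 low mice (an alternative chosen after seeing the data), 4 without water mouse 2 and 11 without high PAC 2, with a range of 2 to 11 when 1 mouse was left out. For low PAC against water it was 0, with 2 by DESeq2 and 0 to 1 (1 without low PAC 2) with 1 mouse left out. The cause was not tested. The number of smooth muscle genes with an exact permutation p under 0.05 was 0 to 1 for low PAC and 0 to 2 for high PAC against water with 1 mouse left out. Such counts are not given without water mice 1 and 3 or without the 4 low mice, because those mice were left out for low values of the same genes. With 1 mouse left out, the median log2 fold change of the 10 genes ran from 0.15 to 0.50 for low PAC, 0.23 to 0.58 for high PAC and -0.01 to 0.22 for high against low PAC. By limma with a pseudocount of 0.1 it was 0.54, 0.69 and 0.16, and with 1 it was 0.53, 0.67 and 0.16. Without water mice 1 and 3 the sign turned in low PAC for Myh11 (-0.12), Acta2 (-0.09), Actg2 (-0.16), Des (-0.13), Cnn1 (-0.09), Tagln (-0.08), Smtn (-0.16), Lmod1 (-0.08) and Synm (-0.13), and in high PAC for Myh11 (-0.06), Actg2 (-0.02), Des (-0.02), Smtn (-0.11), Lmod1 (-0.02) and Synm (-0.11). Without the 4 low mice it turned in low PAC for Actg2 (-0.07), Des (-0.02), Tagln (-0.00064) and Smtn (-0.09), and between the PAC groups for Synm (-0.01). Between the PAC groups, with 1 mouse left out, Myh11 ran from -0.09 to 0.22, Acta2 from -0.02 to 0.19, Smtn from -0.03 to 0.19, Lmod1 from -0.05 to 0.20, Synm from -0.15 to 0.16 and Sh3bgr from -0.01 to 0.30. Same-numbered mice did not pair (correlations of their deviations from the group means from -0.307 to 0.445, and 2, 1 and 0 of 5 best with their own number in low PAC against water, high PAC against water and high against low PAC). With the replicate block no smooth muscle gene was called, and the sign turned between the PAC groups for Myh11 (-0.04), Smtn (-0.02), Lmod1 (-0.01) and Synm (-0.07). With 5 mice a group, the spread between mice limits what can be seen, and counting depth does so only for Sh3bgr.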
